A study of Arabidopsis thaliana with 12 samples.

Results

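This comparison covers Arabidopsis thaliana roots held at pH 6, with 3 arrays after 8 h set against 3 arrays after 1 h. The 6 arrays were taken by their labelled group from the 12 arrays of the series, and the 22746 probe sets that are not array controls were all analysed. Both groups were wild-type Col-0 roots with no transgene, labelled with a stage of 3.90 weeks. The plants had germinated on 0.7% agarose and then grew at 23 °C in hydroponic culture that was not sterile, in a dilute nutrient solution whose phosphate stock was at pH 5.6. The other 6 arrays came from roots at pH 4.5 after 8 h and after 1 h. They are used below to ask whether a change with time differed between the media. All 12 arrays were fitted together, so the arrays at pH 4.5 also enter the spread estimate behind the p-values at pH 6. With only the 6 arrays at pH 6, 1867 probe sets passed the threshold for a change with time, in place of 2751. No group was sampled before the treatment, and the labels do not give the hour of the day, so time in the medium and time of day cannot be told apart. Whether the 3 replicates of a group grew as separate cultures is not in the labels, so the spread behind every p-value is that between samples and may be technical.

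Roots acidify their cell walls with proton pumps, and expansins loosen the wall most readily in acid, so the pH of the medium bears on growth as well as on nutrient uptake. Moving or touching a root sets off a short burst of calcium signals, followed by transcripts for calmodulin-like proteins, WRKY and zinc finger factors and defence enzymes, many of which are transient. Plant cells short of oxygen accumulate a conserved set of transcripts, such as those of fermentation enzymes, and many root transcripts follow the circadian clock or the supply of sugar from the shoot.

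Each array measured 1 RNA sample on the Affymetrix ATH1 design, with signals scaled by the authors to about the same trimmed mean. The median signal was 38.4 to 39.6 in the 8 h arrays and 39.9 to 40.2 in the 1 h arrays, so these did not overlap. The 3′ to 5′ signal ratio of the GAPDH controls was 1.10 to 1.49 at 8 h and 0.928 to 1.26 at 1 h. That of the actin controls was far higher, 14.4 to 19.9 at 8 h and 10.0 to 17.0 at 1 h. Its effect on the results was not tested. The mean of the spike-in controls was 424 to 779 at 8 h and 396 to 481 at 1 h. With 3 arrays a group, a log2 difference had a typical (median) standard error of 0.18, and it is this number that limits the precision. Of the cell type markers chosen for roots, only the root hair expansins EXPA7 and EXPA18 had a named probe set. EXPA7 had signals of 125, 140.4 and 139 at 8 h and 106, 158 and 131 at 1 h, and EXPA18 had 103, 120.2 and 113 at 8 h and 83.6, 110.1 and 107 at 1 h, so both were well measured and overlapped between the times. The wider root hair gene list had 11 measured members, of which 2 had a positive and 9 a negative log2 difference. Its median was -0.22, and 1 member was called lower (9.09%, against 6.00% of all genes). Of 19 shoot and leaf markers 5 had a named probe set, and their summed signal was 85.3 to 107 at 8 h and 194 to 219 at 1 h.

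After 8 h at pH 6, changes of at least 2-fold were mostly falls. Many early stress transcripts were lower than at 1 h, and among the higher ones were several low-oxygen and a few cell wall transcripts. Signals were compared as log2(signal + 4), and folds below are on that scale, which understates the change of dim genes. With 16 in place of 4 as the added constant, the log2 difference moved by over 1.5 times in 10 of the 131 named genes, AT5G59540, PSAN, AT1G26420, COR27, AT5G52720, AT3G16530, AT1G06830, AT5G64110, UGT76E2 and AT2G41380, so their folds are rough. By limma, with Benjamini-Hochberg adjustment at 0.05 over all probe sets, 1213 probe sets were higher and 1538 lower at 8 h, which is 12.1% of the 22746 tested. A fold of at least 2 was reached by 123 of the higher and 373 of the lower probe sets. The arrays of the 2 times did not overlap in 6088 of all 22746 probe sets, and in 98.8% of those called. Lack of overlap, given for genes below, is therefore a description and adds little to a call. Among the 13286 genes that could be named, 603 were higher (4.54%) and 797 lower (6.00%), and these shares are the background for the gene lists below. The median log2 difference over all genes was -0.01. With each array centred on its median the higher share of the called probe sets was 51.2% in place of 44.1%, so which direction holds more calls depends on the scaling. In whole roots, fewer cells of a type and less RNA per cell cannot be told apart, and this holds for each difference below.

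**Figure D1:**
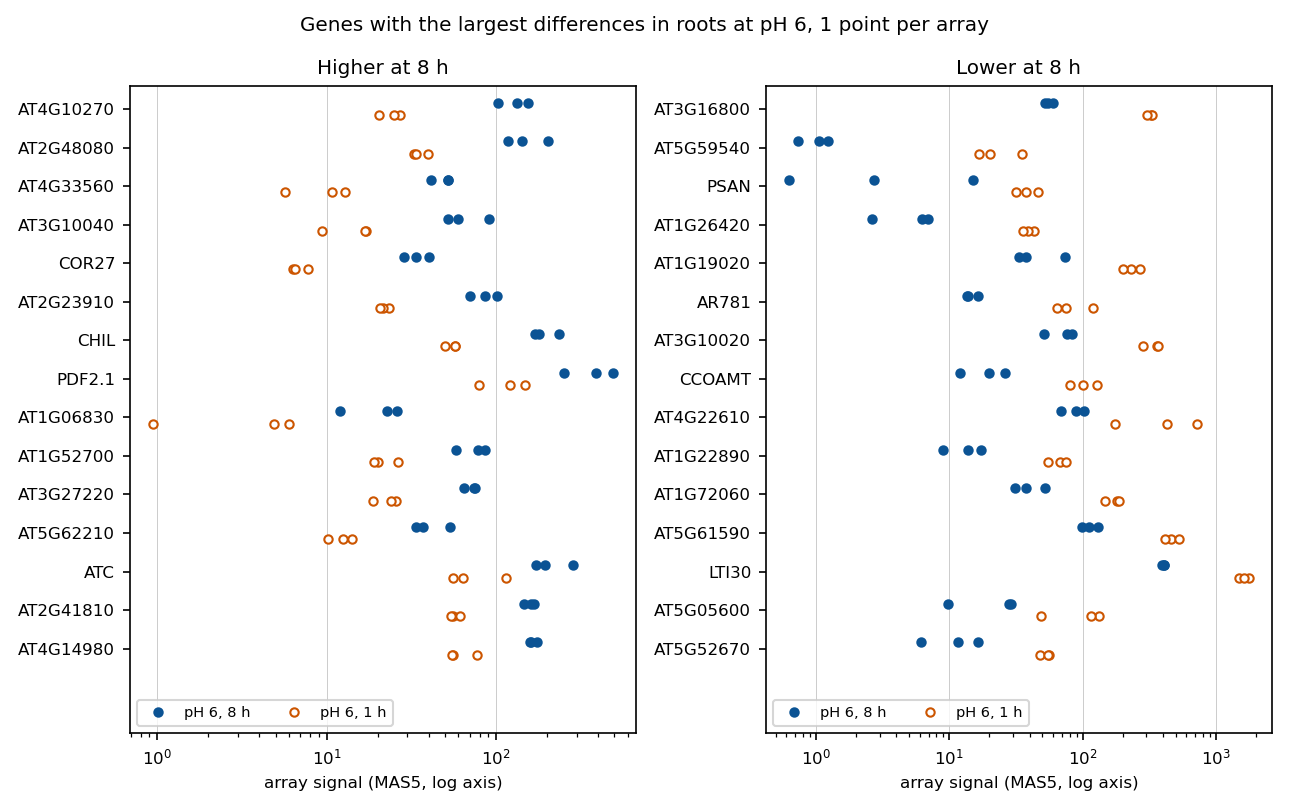
Array signals (log axis) of the 15 genes with the largest rise and the 15 with the largest fall at pH 6, by the naming rule. Each gene has 3 filled points for 8 h above 3 open points for 1 h. The rule takes only genes in which the 2 sets do not overlap. Those shown run from AT4G10270 (4.71-fold higher) to AT3G16800 (5.45-fold lower).

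Genes known to respond to low oxygen were among those that rose most. AT4G10270, of the small wound-responsive protein family, had signals of 102, 133 and 155 at 8 h, against 27.1, 25.0 and 20.4 at 1 h. Every 8 h array was several times above every 1 h array, and the log2 difference was 2.24 ± 0.22 (SE, adjusted p = 1.69e-05, limma). Its relative AT4G33560 had 41.6, 51.9 and 51.9 at 8 h, against 10.7, 5.68 and 12.8 at 1 h (1.97 ± 0.25, adjusted p = 0.000126). AT3G10040, the trihelix factor HRA1 that dampens the low-oxygen response, had 51.8, 59.5 and 90.3 at 8 h, against 9.36, 17.2 and 16.8 at 1 h (1.94 ± 0.27, adjusted p = 0.000235). AT3G27220, a kelch-repeat protein of the same response, had 74.7, 64.5 and 74.4 at 8 h, against 25.5, 18.8 and 23.8 at 1 h (1.498 ± 0.17, adjusted p = 5.34e-05). In these 3 genes too the times were fully apart, which the rule for the largest rises asked of them.

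The low-oxygen list moved in both directions. Of its 15 measured members, 8 rose and 2 fell, with a median log2 difference of 0.68. PDC2, a pyruvate decarboxylase of ethanol fermentation, had 316, 290.5 and 381 at 8 h, against 239, 209 and 165 at 1 h, a log2 difference of 0.68 ± 0.12 (adjusted p = 0.00218, limma). The 2 members that fell were AT3G10020, a low-oxygen response gene of unknown function, and CML38, a calmodulin-like protein that low oxygen also induces. AT3G10020 had 83.7, 51.1 and 76.8 at 8 h, against 363, 285 and 371 at 1 h (-2.22 ± 0.16, adjusted p = 7.12e-07), a change of about the size of that of AT4G10270 in the other direction. CML38 had 18.3, 23.0 and 6.16 at 8 h, against 57.6, 44.97 and 36.3 at 1 h (-1.44 ± 0.27, adjusted p = 0.00299), and it also stands in the early stress list. The number of members that rose was 5 without replicate 2 of the 1 h arrays and also without replicate 2 or replicate 3 of the 8 h arrays.

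**Figure D2:**
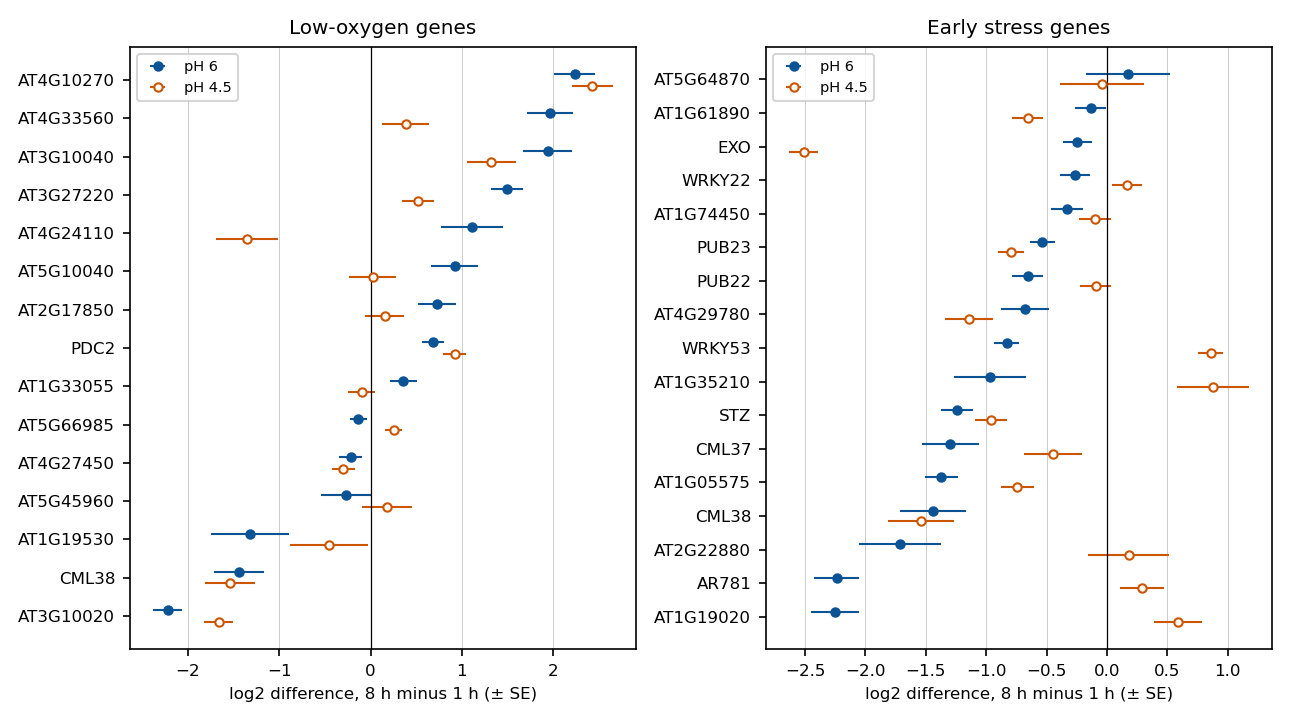
Log2 difference, 8 h minus 1 h, with its standard error, of each measured low-oxygen gene (left) and early stress gene (right) at pH 6 (filled) and at pH 4.5 (open). At pH 6, 8 of 15 low-oxygen genes rose and 12 of 17 early stress genes fell, and WRKY53 fell at pH 6 and rose at pH 4.5.

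Further genes among the largest rises came from other families. AT2G48080, of the 2-oxoglutarate-dependent oxygenases, had 143, 118 and 202 at 8 h, against 32.9, 39.8 and 33.9 at 1 h (1.97 ± 0.21, adjusted p = 2.34e-05, limma). CHIL, a chalcone isomerase-like protein that aids flavonoid synthesis, had 171, 179 and 235 at 8 h, against 57.2, 56.9 and 49.9 at 1 h (1.75 ± 0.21, adjusted p = 5.8e-05), and UGT78D2, which glycosylates flavonoids, had 118, 108 and 128 at 8 h, against 55.3, 65.1 and 45.1 at 1 h (1.05 ± 0.15, adjusted p = 0.000271). For both genes the lowest 8 h array was well above the highest 1 h array, but of 7 measured phenylpropanoid, lignin and flavonoid genes 1 rose (CHIL) and 2 fell (CCOAMT, given below, and CCR2, -0.75, adjusted p = 0.0115 and 0.0677 with only the 6 arrays at pH 6), with a median of -0.01. PDF2.1, a plant defensin, had more scattered replicates, with 490.1, 253 and 389 at 8 h and 147, 79.3 and 121 at 1 h (1.66 ± 0.27, adjusted p = 0.000969). ATC, a member of the TERMINAL FLOWER family of floral repressors, had 194, 172 and 283 at 8 h, against 115, 55.7 and 63.8 at 1 h (1.46 ± 0.32, adjusted p = 0.0084).

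The remaining genes of the 15 largest rises were AT2G23910, of the cinnamoyl-CoA reductase family (3.44-fold), the glutaredoxin AT1G06830 (3.09-fold), AT1G52700, an alpha/beta-hydrolase (3.01-fold), AT5G62210 (2.76-fold), AT2G41810, a DUF642 wall protein (2.65-fold), and AT4G14980, a C1 domain protein (2.56-fold). COR27, treated with the clock genes below, completes them. AT1G06830 was dim, at 20.3 ± 7.36 (SD, n = 3) at 8 h and 3.94 ± 2.65 at 1 h. Its adjusted p reached 0.0766 without replicate 3 of the 1 h arrays, and its call was also lost without replicate 1 or replicate 3 of the 8 h arrays.

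The brightest genes with a rise of at least 2-fold were AT3G09440, a cytosolic HSP70 chaperone, AT5G41670, a 6-phosphogluconate dehydrogenase of the oxidative pentose phosphate pathway, AT3G19030, the NPF transporter AT3G45710 and the dirigent protein AT4G11190. AT3G09440 had 1455, 1289 and 1484 at 8 h, against 809.8, 531 and 668 at 1 h (1.09 ± 0.13, adjusted p = 7.55e-05, limma). Its relative Hsp70-2 had 269, 222 and 266 at 8 h, against 129, 109 and 127 at 1 h (1.03 ± 0.11, adjusted p = 3.53e-05). Of 11 measured heat shock proteins and chaperones 3 rose and the other 8, among them several small heat shock proteins, did not pass the threshold. Besides these HSP70 genes, ATERDJ2B rose (0.59, adjusted p = 0.0369, limma). Its call was lost in 8 of 14 alternatives, with an adjusted p up to 0.156 without replicate 1 of the 1 h arrays. AT5G41670 had 1227, 1093 and 1416 at 8 h, against 568, 545 and 467 at 1 h (1.23 ± 0.12, adjusted p = 9.66e-06), and AT3G19030 had 981, 1174 and 1151 at 8 h, against 408, 429 and 472 at 1 h (1.33 ± 0.10, adjusted p = 1.76e-06). In AT3G09440, Hsp70-2, AT5G41670 and AT3G19030 the groups did not overlap.

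A minority of cell wall genes rose. Of 19 measured expansins and expansin-like genes 5 rose and 1 fell, with a median log2 difference of 0.23. EXPB2, a beta-expansin, had 78.0, 53.5 and 73.6 at 8 h, against 33.6, 25.1 and 24.0 at 1 h (1.19 ± 0.16, adjusted p = 0.000223, limma). EXPA15, an alpha-expansin, had 425, 331 and 454 at 8 h, against 185, 166 and 229 at 1 h (1.04 ± 0.16, adjusted p = 0.000733). These 2 genes were fully apart between the times, whereas the root hair genes EXPA7 and EXPA18 overlapped. EXPB1 (0.78, adjusted p = 0.0427) and EXPA9 (0.60, adjusted p = 0.0146) were higher by less, and with 1 array left out their adjusted p reached 0.167 and 0.0702. Without replicate 1 of the 1 h arrays, or without replicate 1 of the 8 h arrays, 2 expansins rose, and without replicate 3 of the 8 h arrays 3 did. The median was 0.07 without replicate 1 of the 1 h arrays and 0.115 without replicate 2 of the 8 h arrays.

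Of 5 measured laccases and SKU5-similar genes, which encode multicopper oxidases and their relatives in the wall, 3 rose, with a median of 0.41. The gene sks15 had 322, 291 and 304 at 8 h, against 161, 155 and 165 at 1 h (0.91 ± 0.10, adjusted p = 3.98e-05, limma), and sks16 had 173, 150.002 and 148 at 8 h, against 85.2, 77.3 and 101 at 1 h (0.81 ± 0.12, adjusted p = 0.00051). Replicates lay close together in both genes, and the groups did not overlap. SKU5 itself, which affects the direction of root growth, had 1000.2 ± 167 at 8 h and 746 ± 32.8 at 1 h (0.41, adjusted p = 0.0276), a call that was lost when any of 4 arrays was left out (largest adjusted p = 0.123, without replicate 2 of the 8 h arrays).

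Among enzymes acting on wall polymers few members of each family were called. GH9B8, an endoglucanase-family gene, had 285, 282 and 272 at 8 h, against 122, 129.9 and 198 at 1 h (0.91 ± 0.17, adjusted p = 0.00269, limma), and with GH9C2 (0.46) it was 1 of 2 that rose among 15 measured. Of 10 xyloglucan endotransglucosylase/hydrolase genes only XTH19 passed the threshold (0.73, adjusted p = 0.00376). The pectate lyases AT4G24780 (0.55) and AT1G04680 (0.54) were the 2 of 23 that rose. Among 42 pectin methylesterase genes AT5G04970 rose (0.63) and ATPMEPCRD fell (-0.58), and both lost their call when single arrays were left out (adjusted p up to 0.0776 and 0.122, both without replicate 2 of the 8 h arrays). TBL39 (0.45) and TBL36 (0.33), of the family that acetylates wall polysaccharides, rose among 23 relatives, and the second lost its call under several alternatives (adjusted p up to 0.0718, with only the 6 arrays at pH 6). The shares called higher were 13.3% of the endoglucanase genes, 10.0% of the xyloglucan genes and 8.70% of the pectate lyases. They were 8.70% of the TBL39 family and 2.38% of the pectin methylesterases, against 4.54% of all genes. Of the pectin methylesterases 2.38% were called lower, against 6.00% of all genes. With 1 or 2 calls each, these counts are no result about the families. RALFL34, a gene for a RALF signal peptide, had 324 ± 13.8 at 8 h and 221 ± 17.6 at 1 h (0.54, adjusted p = 0.000376).

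**Figure D3:**
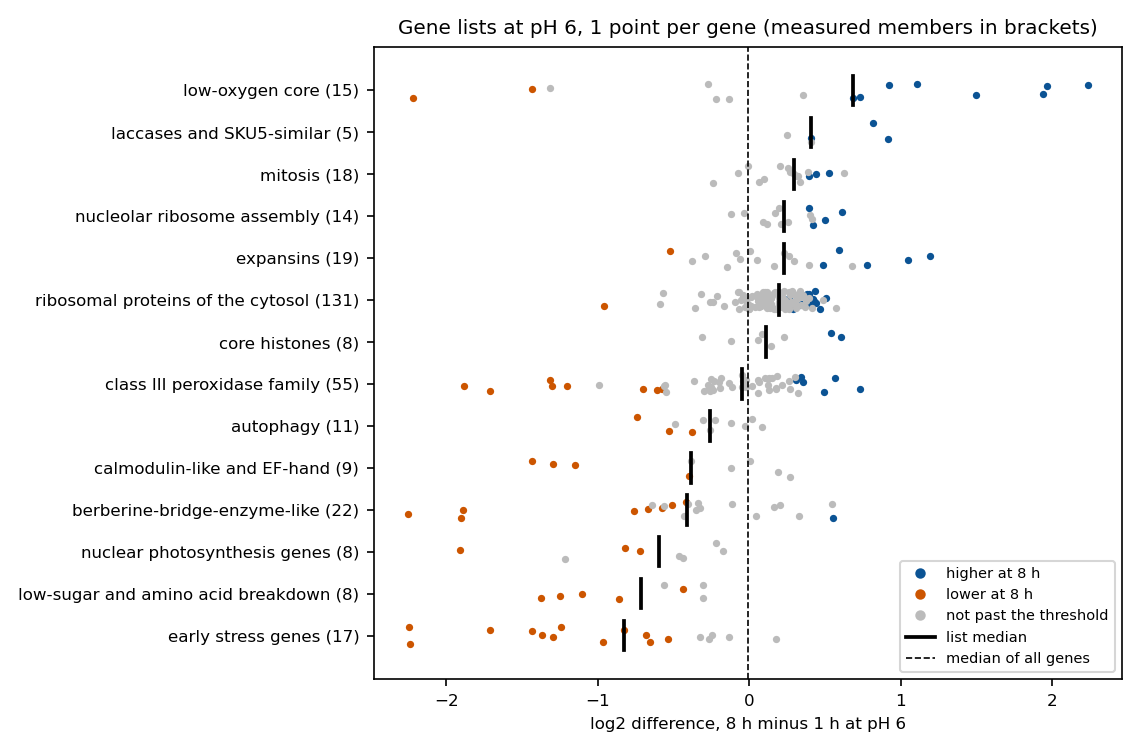
Log2 difference, 8 h minus 1 h at pH 6, of every measured member of 14 gene lists (1 point per gene, vertical place within a row random). Black bars are list medians, from -0.83 for the early stress genes to 0.68 for the low-oxygen genes, and the dashed line is the median of all genes, -0.01.

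Most genes for ribosomal proteins were slightly higher at 8 h in the signals as deposited, but few were called. Of 131 measured genes for cytosolic ribosomal proteins 108 had a positive log2 difference, with a median of 0.19, and 17 passed the threshold as higher and 1 as lower. AT4G17390, for a large-subunit L15 protein, had 2314, 2490.3 and 2290.3 at 8 h, against 1660.1, 1653 and 1911 at 1 h (0.44 ± 0.09, adjusted p = 0.004, limma). Near-identical paralogs could share signal in this family. These rises were small, and their count depended on the scaling: with quantile normalization 4 genes were called higher, the median was 0.05, and the adjusted p of AT4G17390 was 0.0962. The count was also 3 without replicate 2 of the 1 h arrays, 4 without replicate 2 of the 8 h arrays, 9 without replicate 3 of the 8 h arrays and 11 without replicate 1 or replicate 3 of the 1 h arrays, and the median was 0.13 without replicate 2 of the 1 h arrays. Of 14 nucleolar assembly genes 4 rose, the clearest being AT3G15460, a Brix domain protein of large-subunit assembly, with 109, 112 and 101 at 8 h, against 82.6, 66.3 and 59.1 at 1 h (0.61 ± 0.14, adjusted p = 0.0081). The 2 groups were apart in that gene. The others that rose, AT2G18220, AT3G05060 and YAO, lost their call in 5, 6 and 7 of 14 alternatives.

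The histone H2B genes HTB1 and HTB2 rose, HTB1 with 289, 333 and 245 at 8 h, against 203, 199.7 and 186 at 1 h (0.54 ± 0.10, adjusted p = 0.00281, limma), and HTB2 with 161, 170.2 and 167 at 8 h, against 99.95, 116 and 108 at 1 h (0.61 ± 0.11, adjusted p = 0.00231). They were the 2 of 8 measured core histone genes that passed the threshold, against 4.54% of all genes called higher. Of 18 mitosis genes 15 had a positive difference with a median of 0.29, and 3 were called higher. Of these, AT5G60930 lost its call in 8 and AT4G15830 in 6 of 14 alternatives (adjusted p up to 0.199 without replicate 2 and 0.104 without replicate 1 of the 8 h arrays), and AT3G02640 without replicate 1 of the 1 h arrays (adjusted p = 0.0543). Of 4 DNA synthesis genes limma called 0, and 1 had an unadjusted p under 0.05.

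Most of the early stress transcripts measured were lower after 8 h. Of 17 measured members 12 fell and the other 5 did not pass the threshold, with a median log2 difference of -0.83 against -0.01 over all genes, and of -0.51 with 16 as the added constant. AT1G19020, a small stress-induced protein, had 33.5, 73.6 and 37.7 at 8 h, against 269, 229.6 and 200.3 at 1 h (-2.25 ± 0.20, adjusted p = 5.4e-06, limma). AR781, a gene induced by pathogen signals, had 13.8, 16.4 and 13.6 at 8 h, against 119, 64.6 and 75.6 at 1 h (-2.24 ± 0.18, adjusted p = 2.49e-06). The highest 8 h array of each was less than the lowest 1 h array.

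Among the regulators of that list, STZ, a zinc finger repressor of stress genes, had 59.1, 59.0 and 74.1 at 8 h, against 189, 124 and 162 at 1 h (-1.24 ± 0.13, adjusted p = 2.8e-05, limma). WRKY53, a defence and senescence factor, had 86.6, 93.7 and 81.0 at 8 h, against 158, 171 and 145 at 1 h (-0.83 ± 0.10, adjusted p = 0.000108). Both were lower in every 8 h array. WRKY6 had 67.3 ± 6.28 at 8 h and 103 ± 6.08 at 1 h (-0.59, adjusted p = 0.00215), and 3 of 7 measured WRKY genes fell, the third, WRKY47, with an adjusted p up to 0.141 when single arrays were left out. The ubiquitin ligases PUB22, PUB23 and PUB24, which restrain immune signalling, fell by 0.66, 0.53 and 0.82 on the log2 scale (adjusted p = 0.00345, 0.00415 and 0.00163), and were the 3 of 9 U-box genes called. PUB22 had 153, 130.2 and 160.3 at 8 h, against 264, 231 and 211 at 1 h. STZ was named after its values were seen, outside the naming rule, as were PDC2, EXPA7, EXPA18, AT5G40150 and LHCB4.2.

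Of 9 measured calmodulin-like and EF-hand genes 4 fell, with a median of -0.39. CML38, whose values are given above, led them, and CML42 had 149.9 ± 23.5 at 8 h and 197 ± 12.6 at 1 h (-0.40, adjusted p = 0.0348, limma). The median was -0.21 without replicate 2 of the 1 h arrays. The count was 2 without replicate 1 of the 8 h arrays and without replicate 1 or replicate 3 of the 1 h arrays, and the adjusted p of CML42 reached 0.125 without replicate 1 of the 8 h arrays.

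Of 22 measured berberine-bridge-enzyme-like genes, several of which act on wall sugars or in defence metabolism, 8 fell and 1 rose, with a median of -0.41. AT1G26380 had 23.4, 35.1 and 25.3 at 8 h, against 122, 109 and 111 at 1 h (-1.90 ± 0.14, adjusted p = 9.66e-07, limma), and its neighbour in number AT1G26420 had 6.91, 6.19 and 2.62 at 8 h, against 43.2, 38.7 and 35.8 at 1 h (-2.26 ± 0.22, adjusted p = 1.23e-05). AT1G30700 was brighter and fell by less, with 176, 159 and 151 at 8 h, against 287, 279.8 and 265 at 1 h (-0.76 ± 0.09, adjusted p = 4.83e-05). None of these 3 genes overlapped between the times. The count that fell was 5 without replicate 1 of the 1 h arrays and 5 without replicate 2 of the 8 h arrays, and the median was -0.21 with 16 as the added constant.

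Class III peroxidases, which make or use hydrogen peroxide in the wall, split. Of 55 measured genes 6 rose and 8 fell, and the median was -0.05, or -0.09 to -0.14 without any 1 of the 8 h arrays, replicate 2 or replicate 3 of the 1 h arrays. The largest rise was that of AT5G40150 (0.73), whereas 5 of the falls exceeded 2-fold. AT1G49570 had 41.0, 55.2 and 45.1 at 8 h, against 196, 182 and 172 at 1 h (-1.88 ± 0.14, adjusted p = 9.66e-07, limma). AT5G64120 had 84.0, 62.5 and 83.6 at 8 h, against 364, 227 and 207 at 1 h (-1.71 ± 0.18, adjusted p = 2.58e-05). AT5G19890, the brightest of the 4 peroxidases named by the rule, had 256, 268 and 330.5 at 8 h, against 879, 610.0 and 652 at 1 h (-1.30 ± 0.13, adjusted p = 1.62e-05), and AT5G64110 was the dimmest of the 4, with 10.2 ± 3.11 at 8 h and 31.4 ± 9.51 at 1 h (-1.31). In all 4 every 8 h array was below every 1 h array.

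The largest fall among genes named by the rule was that of AT3G16800, a protein phosphatase 2C that restrains growth in drought. It had 55.2, 51.8 and 60.4 at 8 h, against 328, 331 and 306 at 1 h, and both sets were tight (-2.45 ± 0.09, adjusted p = 9.38e-10, limma). LTI30, a dehydrin that protects membranes in cold and drought, had 406, 409 and 395 at 8 h, against 1770.0, 1493 and 1636 at 1 h (-2.004 ± 0.08, adjusted p = 1.92e-09). AT5G61590, the ethylene response factor DEWAX that represses wax synthesis, had 131, 98.1 and 111 at 8 h, against 458, 531 and 412 at 1 h (-2.004 ± 0.23, adjusted p = 5.22e-05). CCOAMT, a caffeoyl-CoA methyltransferase-like enzyme, had 19.9, 12.1 and 26.3 at 8 h, against 128, 80.6 and 100.4 at 1 h (-2.21 ± 0.20, adjusted p = 6.55e-06). AT5G05600, an oxidase that inactivates jasmonate, had 28.1, 28.8 and 9.84 at 8 h, against 132, 48.4 and 116 at 1 h (-1.96 ± 0.37, adjusted p = 0.00286), with replicates further apart. AT4G22610, of the lipid transfer protein superfamily, had scattered 1 h arrays, with 68.7, 103 and 89.7 at 8 h and 431, 175 and 723 at 1 h (-2.09 ± 0.36, adjusted p = 0.00155). The other genes of the 15 largest falls were AT5G59540, whose 8 h signals were all under 2 so that its difference depends on the added constant (-2.43 with 4 and -1.21 with 16), AT1G22890 (4.08-fold lower), AT1G72060, a protease inhibitor (4.03-fold), AT5G52670, a heavy-metal-associated domain protein (3.85-fold), and PSAN, given below.

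Bright genes that fell at least 2-fold included AT5G62350, of the family of pectin methylesterase and invertase inhibitors, AT2G23120, a late embryogenesis abundant protein, and AT5G43520, a C1 domain protein. AT5G62350 had 734, 706 and 653 at 8 h, against 1676, 1521 and 1792 at 1 h (-1.25 ± 0.09, adjusted p = 5.08e-07, limma). AT2G23120 had 613, 709 and 578 at 8 h, against 1659, 1461 and 1373 at 1 h (-1.24 ± 0.10, adjusted p = 2.07e-06). AT5G43520 had 629, 652 and 728 at 8 h, against 1636, 1410.1 and 1142 at 1 h (-1.04 ± 0.15, adjusted p = 0.000271). All 3 dropped below the 1 h arrays without overlap.

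Of 8 measured genes of low sugar and amino acid breakdown 5 fell and 3 did not pass the threshold (4 fell under most alternatives). All 8 had a negative difference, and the median was -0.71. AT3G15450, a gene that sugar represses and darkness induces, had 893, 747 and 1117 at 8 h, against 2473, 1945 and 2108 at 1 h (-1.25 ± 0.20, adjusted p = 0.000967, limma). In leucine breakdown, MCCA, a subunit of methylcrotonyl-CoA carboxylase, had 92.1, 82.6 and 82.5 at 8 h, against 204, 224 and 261 at 1 h (-1.37 ± 0.18, adjusted p = 0.00015), and IVD, isovaleryl-CoA dehydrogenase, had 53.6, 47.6 and 56.9 at 8 h, against 118, 106 and 129.6 at 1 h (-1.10 ± 0.12, adjusted p = 3.39e-05). Both enzymes were lower in every 8 h array. AKINBETA1, a subunit of the energy sensor kinase SnRK1, had 157, 119.5 and 149.6 at 8 h, against 259.9, 229.6 and 294 at 1 h (-0.86 ± 0.12, adjusted p = 0.000257).

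In the ATG8 family, whose proteins coat the autophagosome, ATG8F had 449, 437 and 423 at 8 h, against 640.0, 617 and 639.5 at 1 h (-0.53 ± 0.08, adjusted p = 0.000369, limma), and ATG8E had 185, 145 and 113 at 8 h, against 240.3, 308 and 198 at 1 h (-0.74 ± 0.17, adjusted p = 0.00938). With ATG8H (-0.38, adjusted p = 0.0481, and up to 0.182 with 1 array left out) they were the 3 of 11 autophagy genes called, and the list median was -0.26.

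Clock and clock-linked genes moved in both directions. GI, the evening-phased GIGANTEA gene of the clock, had 145, 122 and 139 at 8 h, against 355, 359.7 and 351 at 1 h (-1.37 ± 0.08, adjusted p = 1.81e-07, limma), with very close replicates. CCL, a clock-regulated transcript of unstable RNA, had 14.3, 17.5 and 15.1 at 8 h, against 70.3, 50.3 and 45.9 at 1 h (-1.58 ± 0.20, adjusted p = 0.000123). COR27, a cold- and clock-regulated repressor, went the other way, with 33.8, 40.1 and 28.7 at 8 h, against 7.82, 6.38 and 6.55 at 1 h (1.799 ± 0.19, adjusted p = 2.34e-05). The groups were apart in all 3, and these were 3 of the 4 measured members. The part of the hour of the day in these values was not tested.

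Of 8 measured nuclear genes of photosynthesis all 8 had a negative difference, 3 were called lower and the median was -0.60. The fall was not particular to pH 6. At pH 4.5 the median was -0.95, LHCB4.1 (-0.91) and RCA (-1.02) were called lower too, and no member had a called difference between the media. LHCB4.1, a light-harvesting protein, had 51.2, 41.8 and 35.4 at 8 h, against 76.4, 72.2 and 85.9 at 1 h (-0.82 ± 0.18, adjusted p = 0.00653, limma). RCA, rubisco activase, had 31.4, 27.4 and 31.9 at 8 h, against 45.6, 46.8 and 67.3 at 1 h (-0.72 ± 0.21, adjusted p = 0.0362, which reached 0.146 without replicate 3 of the 1 h arrays and was over 0.05 without any 1 of the 6). PSAN, a photosystem I subunit outside that list, had 14.99, 2.73 and 0.626 at 8 h, against 46.3, 37.5 and 31.8 at 1 h (-2.33 ± 0.39, adjusted p = 0.00107), so its 8 h signals ranged widely near the bottom of the scale. LHCB4.1, RCA and PSAN are also shoot and leaf markers, of which 4 of the 5 named fell, with the fourth, LHCB4.2, at 1.92 ± 1.92 at 8 h and 19.2 ± 9.63 at 1 h. The summed signal of the 5 was 85.3 to 107 at 8 h and 194 to 219 at 1 h, and its part in the result was not tested. Of plastid-encoded transcripts 69 were measured, of which 3 rose (4.35%) and 2 fell (2.90%), with a median of -0.08. Neither share was above that of all genes, 4.54% higher and 6.00% lower. Among those that rose, clpP and rpl36 lost their call in 7 and 6 of 14 alternatives. The plastid RNA polymerase gene rpoA had 489, 522 and 602 at 8 h, against 233, 383 and 247 at 1 h (0.92 ± 0.17, adjusted p = 0.00198).

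Secondary metabolism and hormone genes gave smaller, mixed sets. Of 51 measured UDP-glycosyltransferases 6 rose (11.8%, against 4.54% of all genes) and 3 fell (5.88%, against 6.00%), with a median of -0.03. UGT73D1 fell most, with 11.5, 18.4 and 9.23 at 8 h, against 73.7, 49.2 and 31.6 at 1 h (-1.67 ± 0.24, adjusted p = 0.00037, limma). BGLU46, a glucosidase of lignin precursors, had 102, 109 and 71.5 at 8 h, against 192, 171 and 192 at 1 h (-0.96 ± 0.16, adjusted p = 0.00127). It was the 1 of 22 measured beta-glucosidases called lower (4.55%, against 6.00% of all genes). Of 23 cytochrome P450 genes 2 fell (8.70%, against 6.00% of all genes), CYP71B26 (-1.06, adjusted p = 3.44e-05) and CYP71B6 (-0.53, adjusted p = 0.00114). Among 14 auxin response genes GH3.17, which conjugates auxin to glutamate, rose (0.63, adjusted p = 0.0026), and LBD16, which founds lateral roots, fell (-0.74, adjusted p = 0.00462). That is 7.14% in each direction. The glutathione transferase GSTU20 rose (0.81, adjusted p = 0.000543), alone among 14 relatives (7.14%, against 4.54% of all genes), and so did PR-1-LIKE (1.22, adjusted p = 4.56e-05) among 5 pathogenesis-related genes. The tonoplast sugar carrier SWEET16 fell (-0.69, adjusted p = 0.00623), the 1 of 16 SWEET genes called (6.25%). The iron-linked factor bHLH121 (-0.67, adjusted p = 0.00175) and AT1G26240, an extensin-like gene of the root hair list (-1.05, adjusted p = 0.00055), fell too. Where a share lies near that of all genes, the count is no result about the family.

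Of 12 genes of nitrate and ammonium transport and assimilation limma called 0. A positive difference was found in 10 and a negative one in 2, with a median of 0.25 and a range of -0.85 to 0.40. An unadjusted p under 0.05 was reached by 1 gene that was higher and 2 that were lower at 8 h. Of 8 iron deficiency genes 3 fell, against 6.00% of all genes, with a median of -0.04. Of these, AT1G18910 lost its call in 5 and AT3G07720 in 6 of 14 alternatives (adjusted p up to 0.111 and 0.105, both without replicate 2 of the 8 h arrays), and the arrays of AT3G07720 overlapped between the times.

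The changes at pH 6 were then set beside those over the same hours at pH 4.5, which come from other arrays, and the difference between the 2 changes was tested in the same fit. Of all 13286 genes, 490 had a change that was higher at pH 6 (3.69%) and 608 a change that was lower at pH 6 (4.58%). Of the 603 genes that rose at pH 6, the difference was called in 184 (30.5%), and 403 had a positive and 200 a negative log2 difference at pH 4.5. Of the 797 that fell at pH 6, it was called in 311 (39.0%), and 300 had a positive and 497 a negative log2 difference at pH 4.5. The median log2 difference of the genes that rose was 0.53 at pH 6 and 0.16 at pH 4.5, and that of the genes that fell was -0.67 at pH 6 and -0.13 at pH 4.5. These genes were picked for their change at pH 6, which also enters the difference, so a called difference was favoured among them. The shares of 30.5% and 39.0% and the smaller change at pH 4.5 are therefore a description only.

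**Figure D4:**
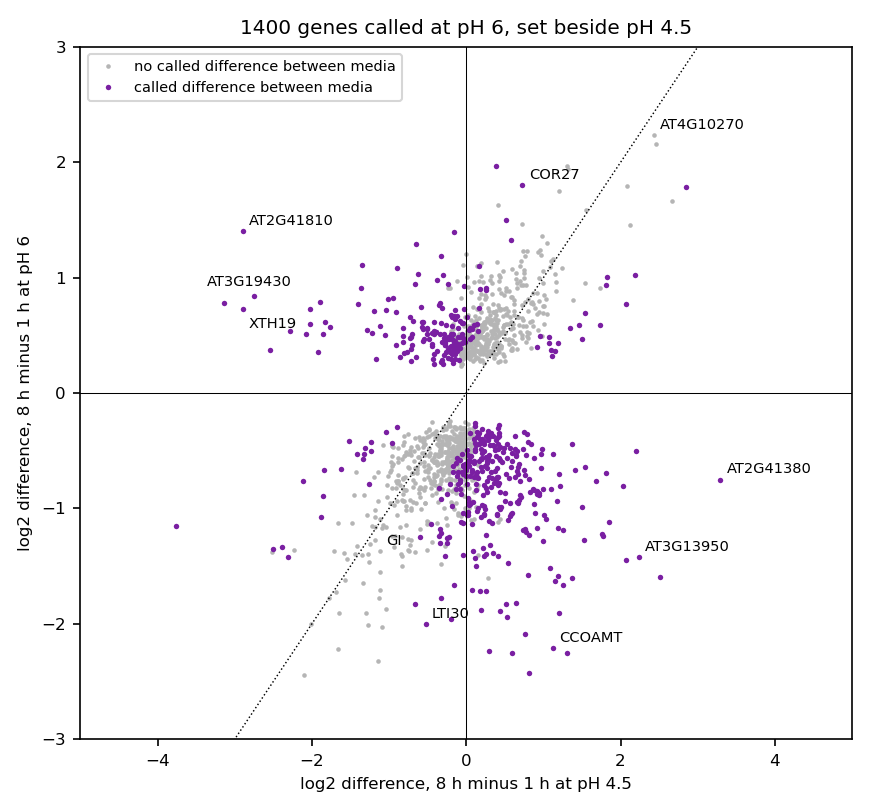
Log2 difference, 8 h minus 1 h, of the 1400 genes called at pH 6 (vertical axis), against the same difference at pH 4.5 (horizontal axis). Each point is a gene, purple where the difference between the media was called, and the dotted line marks equal change; GI and AT4G10270 lie near it, and AT3G19430, XTH19, CCOAMT and AT2G41380 lie in the quadrants of opposite sign.

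Among genes that rose at pH 6, 6 are given for the largest difference from their course at pH 4.5, and several encode proteins of the cell wall. AT2G41810, the DUF642 protein, had 168, 160.0 and 146 at 8 h, against 55.8, 53.9 and 61.6 at 1 h at pH 6, and 1.22, 0.564 and 1.66 at 8 h, against 29.9, 31.4 and 42.6 at 1 h at pH 4.5. The difference between the 2 changes was 4.30 ± 0.23 on the log2 scale (adjusted p = 3.63e-08, limma). AT3G19430 had 507, 502 and 491 at 8 h, against 252, 234 and 409 at 1 h at pH 6, and 30.8, 32.2 and 30.3 at 8 h, against 319, 296 and 304 at 1 h at pH 4.5 (difference 3.92 ± 0.21, adjusted p = 3.45e-08). Its 1 h signals overlapped between the media, and its 8 h signals lay on opposite sides of them. XTH19 had 411, 390.2 and 387 at 8 h, against 171, 261 and 298 at 1 h at pH 6, and 150.3, 156 and 137 at 8 h, against 1151, 1097 and 1127 at 1 h at pH 4.5 (difference 3.63 ± 0.20, adjusted p = 4.91e-08), so in this gene the 1 h levels were far apart already. AT4G25250, a pectin methylesterase inhibitor (difference 3.59), AT1G76240 (2.92) and the dehydrin-family gene AT4G38410 (2.81) completed this set. The calls at pH 6 of AT1G76240 and AT4G38410 were lost when single arrays were left out, with adjusted p up to 0.125 (without replicate 1 of the 1 h arrays) and 0.185 (without replicate 2 of the 8 h arrays).

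Some SKU5-family, histone and ribosomal protein genes also had a change that was higher at pH 6 than at pH 4.5. The gene sks15, given above, had 32.3, 34.5 and 37.8 at 8 h, against 85.1, 94.7 and 111 at 1 h at pH 4.5, a difference between the changes of 2.28 ± 0.14 (adjusted p = 1.72e-07, limma), and for sks16 and SKU5 it was 1.83 and 0.86. All 3 SKU5-family genes that rose at pH 6 had a called difference, but the difference includes the pH 6 change by which they were picked. Of 131 ribosomal protein genes 30 had a change higher at pH 6, against 3.69% of all genes. The list medians were 0.19 at pH 6 and -0.19 at pH 4.5. These values hold for the signals as deposited. With quantile normalization the median at pH 6 was 0.05, and the count of 30 was not checked under other scaling. Of 8 core histone genes 4 had a change higher at pH 6, with list medians of 0.11 and -0.36. Of the low-oxygen genes 3 had a change higher at pH 6, among them AT4G33560 (1.58 ± 0.36, adjusted p = 0.00998) and AT3G27220 (0.98 ± 0.25, adjusted p = 0.0199), whereas AT4G10270 changed by 2.24 at pH 6 and 2.43 at pH 4.5 with a difference of -0.19 ± 0.32 (adjusted p = 0.804).

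**Figure D5:**
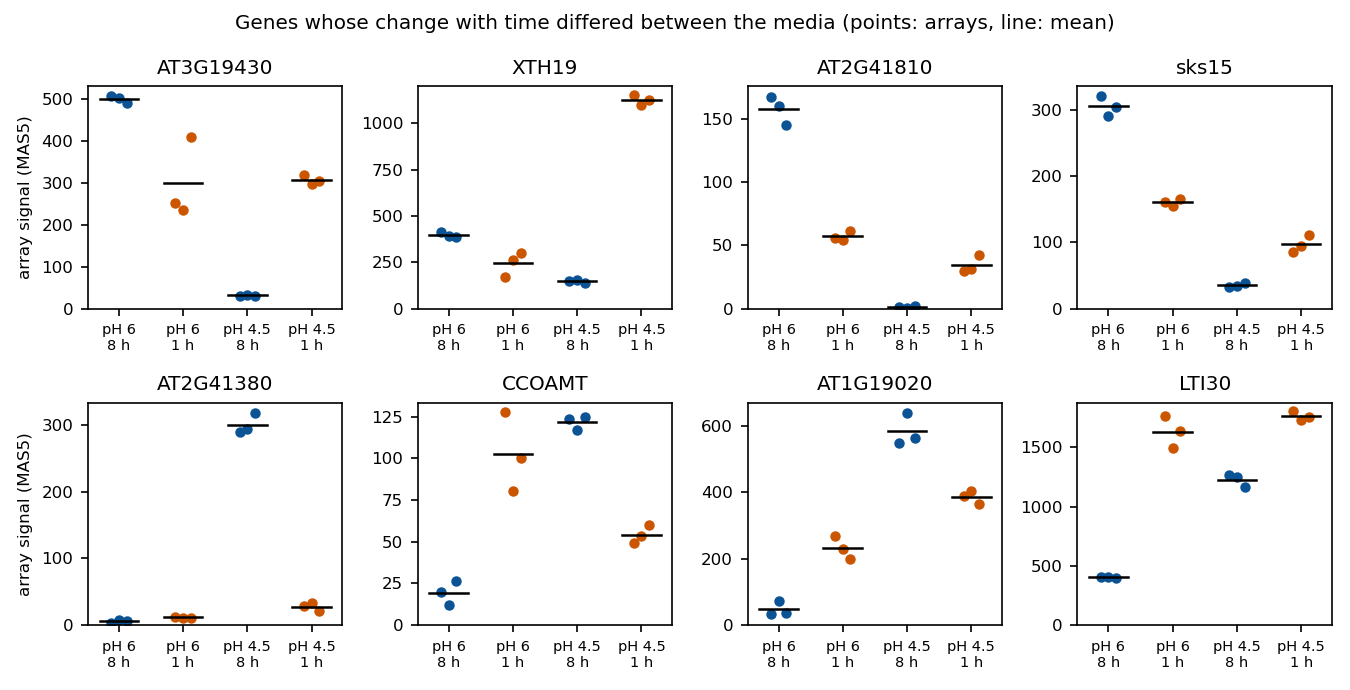
Array signals (linear axis from 0) of 8 genes whose change with time differed between the media, with 3 points per group and a line at the mean, in the order pH 6 at 8 h and 1 h, then pH 4.5 at 8 h and 1 h. AT3G19430, XTH19, AT2G41810 and sks15 are higher at 8 h than at 1 h at pH 6 and lower at pH 4.5; AT2G41380 and CCOAMT show the opposite, AT1G19020 is lower at 8 h at pH 6 and was not called at pH 4.5, and LTI30 falls in both media but further at pH 6.

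Other genes that fell at pH 6 rose, or did not pass the threshold, at pH 4.5. AT1G19020, given above, had 549.9, 640.4 and 564 at 8 h, against 390.4, 405 and 365 at 1 h at pH 4.5 (0.59, adjusted p = 0.0635), and the difference between its changes was -2.84 ± 0.28 (adjusted p = 1.02e-05, limma). CCOAMT had 124, 117 and 125 at 8 h, against 49.3, 53.3 and 59.8 at 1 h at pH 4.5 (difference -3.33 ± 0.29, adjusted p = 2.24e-06). AT2G41380, a methyltransferase, was dim at pH 6, with 3.10, 7.12 and 5.66 at 8 h and 12.1, 11.3 and 10.8 at 1 h, and had 290.4, 294 and 319 at 8 h, against 28.1, 33.1 and 21.2 at 1 h at pH 4.5 (difference -4.04 ± 0.27, adjusted p = 3.03e-07). With only the 6 arrays at pH 6 its adjusted p for the fall was 0.116, and that of the lectin AT3G16530 was 0.0549; the call of AT2G41380 was also lost without replicate 1 of either time. AT3G13950 (difference -3.66), AT3G16530 (-3.51), AT5G52720 (-4.12), AT1G26420 (-3.56) and CCL (-2.77) also fell at pH 6 and rose at pH 4.5. WRKY53 had 136, 132 and 116 at 8 h, against 75.5, 63.7 and 67.1 at 1 h at pH 4.5 (difference -1.69 ± 0.15, adjusted p = 2.67e-06).

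Falls shared by the media included those of AT3G16800, AT5G61590, GI and AT3G10020, whose log2 differences at pH 4.5 were -2.10, -2.01, -1.12 and -1.66. The differences between the changes of these genes were -0.35 ± 0.12, 0.01 ± 0.33, -0.25 ± 0.12 and -0.56 ± 0.23 (adjusted p = 0.104, 0.993, 0.24 and 0.159, limma), so no difference between media was called for them, which does not show that the changes were equal. LTI30 fell in both media but further at pH 6: at pH 4.5 it had 1263, 1248 and 1169 at 8 h, against 1809, 1736 and 1759 at 1 h (difference -1.48 ± 0.11, adjusted p = 8.15e-07). Of the peroxidases 21 of 55 had a change that was lower at pH 6, and 6 one that was higher. AT1G49570, for one, had 148, 186 and 213 at 8 h, against 149.8, 142 and 185 at 1 h at pH 4.5 (difference -2.07 ± 0.20, adjusted p = 7.17e-06).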

How the data were processed

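The deposited table holds linear signal intensities. The submitters' processing notes name GCOS and MAS5 for them, without versions. Every array has a trimmed mean near 100. The 64 control probe sets were left out. By GEO's probe annotation, 13513 probe sets carry a single gene and 503 more than that, and RefSeq symbols (assembly TAIR10.1) were matched for 13436, giving 13286 genes. A gene with several probe sets was represented by the one with the highest mean, and 9310 analysed probe sets stayed unnamed. All 12 arrays, in 4 groups of 3, were fitted together on log2(signal + 4) with limma 3.58.1 in R 4.3.3 (1 mean per group, 8 residual degrees of freedom, eBayes with trend in intensity), two-sided, with Benjamini-Hochberg adjustment over 22746 probe sets at 0.05. Adjusted p-values are from limma throughout. Python 3.11.15 with pandas 2.3.3 and matplotlib 3.10.9 did the rest.

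Named genes were the 15 largest rises and 15 largest falls with non-overlapping arrays, up to 4 called members of each list, the 6 largest differences between media in each direction among genes called at pH 6, and the 5 brightest genes changed at least 2-fold in each direction. Except for the last group, a mean signal of at least 20 in the highest group was needed. Not every named gene is described. Lists are given by counts and medians, with no set test. The members and lists were chosen with earlier results of these data known. The same procedure, tested on simulated data for 8 h against 1 h at pH 6 with 22746 probe sets, recovered 48 and 49 of 50 changes of 1 and -1 on the log2 scale, and 27 and 25 of 50 changes of 0.5 and -0.5. These changes were placed only in probe sets above the median mean level, with normally distributed noise. Recovery among dimmer probe sets was therefore not tested. Same-numbered replicates at pH 6 did not deviate together (correlations -0.03 to 0.07), so the numbers were not taken as pairs. Promoter motifs were not analysed here. Alternatives covered the added constant, a filter on low probe sets, the scaling, the variance prior, the replicate block, the 6 arrays alone and single arrays left out.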

Additional observations from a re-analysis of the deposited data

Results flagged for a closer look

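Of the 131 genes named by the rule, 63 had a change with time that differed between pH 6 and pH 4.5 by the test of the difference in limma, and these are given here with that difference on the log2 scale, the change at pH 6 minus the change at pH 4.5. Genes that rose at pH 6 and fell at pH 4.5 were AT2G41810 (4.30), AT3G19430 (3.92), XTH19 (3.63), AT4G25250 (3.59), AT1G76240 (2.92), AT4G38410 (2.81), sks15 (2.28), sks16 (1.83), AT5G04970 (1.31), TBL39 (1.01), HTB1 (0.96), SKU5 (0.86) and TBL36 (0.62). Genes that rose at pH 6 and did not pass the threshold at pH 4.5 were AT4G33560 (1.58), AT3G27220 (0.98), rpoA (0.95), AT3G45710 (0.94), AT3G02640 (0.76), AT2G32220 (0.70), AT5G59240 (0.70), HTB2 (0.65), RALFL34 (0.51), AT4G17390 (0.46) and AT1G04680 (0.39). Both media showed a rise in COR27 (1.07) and AT3G19030 (0.74), larger at pH 6, and in Hsp70-2 (-1.17) and AT2G23910 (-1.07), larger at pH 4.5.

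Genes that fell at pH 6 and rose at pH 4.5 were AT5G52720 (-4.12), AT2G41380 (-4.04), AT3G13950 (-3.66), AT1G26420 (-3.56), AT3G16530 (-3.51), CCOAMT (-3.33), AT5G59540 (-3.24), AT1G26380 (-3.10), UGT73D1 (-2.93), CCL (-2.77), WRKY53 (-1.69), IVD (-1.64), AT1G26240 (-1.63), CYP71B6 (-1.50), AT1G30700 (-1.46) and CHX16 (-1.22). Genes that fell at pH 6 and did not pass the threshold at pH 4.5 were AT4G22610 (-2.85), AT1G19020 (-2.84), AR781 (-2.53), AT5G52670 (-2.47), AT1G49570 (-2.07), AT5G64120 (-1.78), AT5G05600 (-1.76), AT5G64110 (-1.63), PUB24 (-1.08), LBD16 (-1.07), AT5G19890 (-1.05), BGLU46 (-1.01), AT5G43520 (-0.99), WRKY6 (-0.69), ATG8H (-0.68) and ATG8F (-0.48). Those that fell in both media, and further at pH 6, were LTI30 (-1.48), AT2G23120 (-0.88) and AT5G62350 (-0.65). No outlier was looked for within groups of 3 arrays.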

How the results depend on the processing

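All 131 named genes kept their direction under each of the 14 alternatives, apart from 3 that the filter on low probe sets removed, and 93 stayed past the threshold in every one. Without the intensity trend 26 lost the call, and with only the 6 arrays at pH 6 also 26. The replicate block lost 6 calls of named genes and gave 2761 probe sets called at pH 6 in place of 2751, and 2259 differences between media in place of 2145. The counts of all probe sets stayed within 1.5 times of those reported except when a fold of at least 2 was also asked for, which left 496. Leaving out single arrays gave 1857 to 2321 calls at pH 6 and 1694 to 2076 differences between media. Centring each array on its median put 51.2% of the called probe sets on the higher side in place of 44.1%, and 55.2% in place of 45.7% of the differences.

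The list counts were checked under the same alternatives, chosen after seeing the data. Leaving out 1 array gave 10 to 11 early stress genes lower at 8 h, 5 to 8 berberine-bridge-enzyme-like genes, 2 to 4 calmodulin-like genes, 8 to 9 peroxidases, 4 to 5 genes of low sugar and 2 to 3 photosynthesis genes, and higher at 8 h 5 to 7 low-oxygen genes, 3 to 18 ribosomal protein genes, 2 to 4 expansins and 2 to 3 SKU5-family genes. Ribosomal protein genes higher at 8 h numbered 26 with the filter on low probe sets, 4 with quantile normalization, 4 without the intensity trend and 3 with only the 6 arrays at pH 6. The last setting also gave 2 calmodulin-like genes and 5 low-oxygen genes, and without the intensity trend 3 expansins were higher. With 16 as the added constant the log2 differences of AT5G59540 (-1.21), PSAN (-1.35), AT1G26420 (-1.38), COR27 (1.13) and AT5G52720 (-0.71) were among 10 that moved by over 1.5 times. The cause of these shifts was not tested. EXPB1, RCA, RALFL24 and YAO lost their call without any 1 of the 6 arrays. Promoter motifs were not run. With 3 arrays a group, changes of 0.5 on the log2 scale are often missed, and signals near the constant of 4 have no reliable ratio.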

Other observations

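Among the 9310 analysed probe sets that carry no gene name here, 609 were higher and 737 lower after 8 h at pH 6, and 64 and 196 of these by at least 2-fold. They are not described further. Among the 6824 probe sets under the 30th percentile of mean signal, 40 were higher and 87 lower.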
